A study of Mus musculus with 4 samples.

Results

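Growth hormone signalling in the liver was followed through 10 genes, Ghr, Jak2, Stat5a, Stat5b, Socs2, Socs3, Cish, Bcl6, Cux2 and Egfr, out of 18193 genes that the array measured with at least 1 probe set of a single gene symbol. The members were taken by gene symbol. They had 31 probe sets, of which 26 lay at or above the filter on level, a mean of 3.74 over the 4 arrays on the log2 scale. All 10 genes were kept, among 11582 genes in all, each represented by its probe set with the highest mean. The samples came from male mice of the inbred strain C57BL/6J, all fed a low-fat diet ad libitum, at 4, 8, 13 and 21 months of age. A pool of liver RNA from 6 mice was hybridised to 1 oligonucleotide array for each age, so there were 4 arrays and no replicate at any age. A pair of ages therefore has no test, and mouse-to-mouse spread is unknown.

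Growth hormone binds its receptor on hepatocytes, and the receptor-bound kinase JAK2 then phosphorylates the transcription factors STAT5A and STAT5B. STAT5 dimers switch on hepatic target genes, among them Igf1 and the feedback inhibitors Socs2 and Cish, whose proteins dampen signalling at the receptor. Male mice secrete the hormone in pulses and females more continuously, and this pattern sets many sex differences of the mouse liver. BCL6 and CUX2 are repressors that act on STAT5-dependent, sex-biased genes there. Bcl6 is male-biased and Cux2 female-biased in mouse liver.

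The hepatic identity of the pools was checked with 7 hepatocyte markers, 6 of which were kept, and their mean level was 12.34, 12.29, 12.29 and 12.28 at 4, 8, 13 and 21 months. The array medians lay between 3.73 and 3.76. All levels below are RMA expression values in log2 units, so 1 unit is 2-fold, and differences are older minus younger. A difference of at least 1.5-fold, 0.585 on the log2 scale, was counted as past the fold rule. In whole-liver RNA, fewer cells of a type and less RNA per cell cannot be told apart.

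Of the 10 genes, 5 had a range over the 4 ages of at least 1.5-fold, namely Bcl6, Egfr, Socs2, Cish and Socs3, against 5.41% of the genes kept. The ranges of the other 5 were 0.48 for Stat5b, 0.32 for Ghr, 0.23 for Jak2, 0.13 for Cux2 and 0.03 for Stat5a. Stat5b ranked 1019 and Ghr 2800 of 11582 genes by range, in the top 8.80% and 24.2%. Socs2 and Cish were highest at 13 months, and Bcl6, Egfr and Socs3 were lowest there. In all, 7 of the 10 genes had their lowest level at 13 months, against 21.2% of the genes kept, although for Jak2 and Stat5a the gap to the next age was within 0.02. Against this, 1 gene each was lowest at 4, 8 and 21 months, for which the shares of the genes kept were 21.8%, 26.2% and 25.1%.

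**Figure D1:**
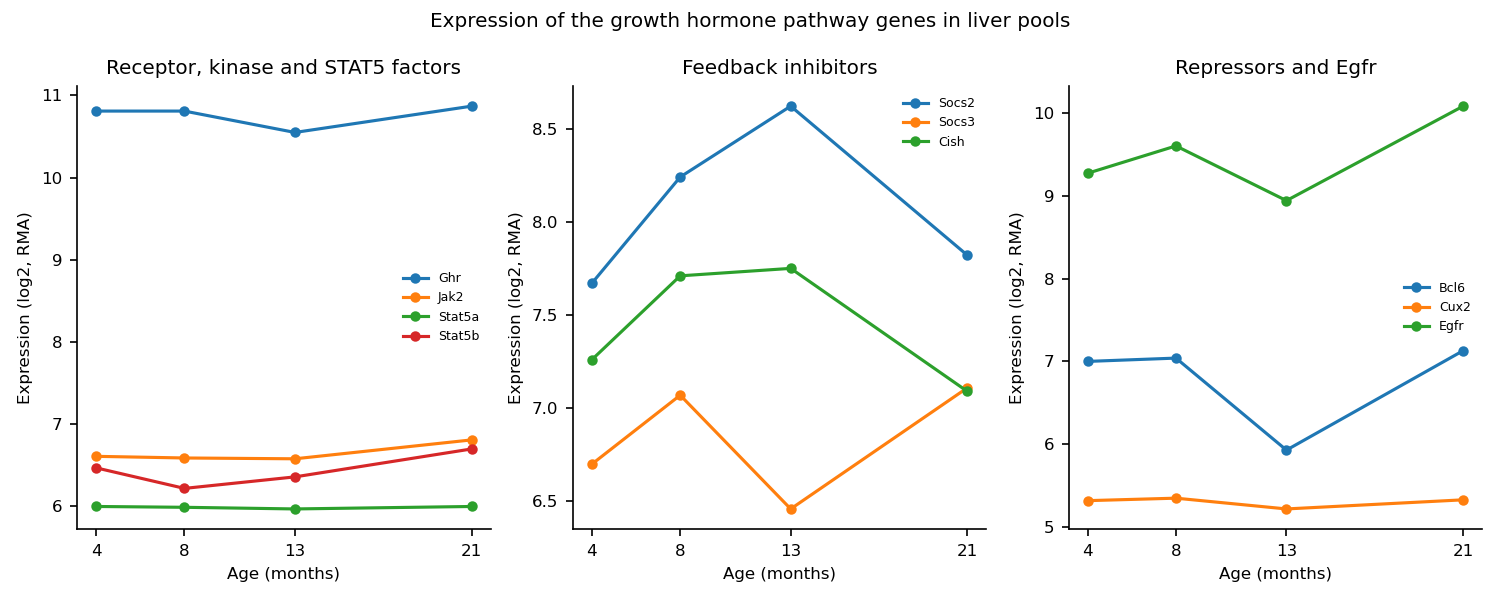
Expression (log2, RMA) of each gene's brightest probe set against age in months, 1 pool of 6 mice per point, in 3 panels by role. Ghr, Jak2, Stat5a and Stat5b stay within a range of 0.48, Socs2 and Cish arch to a peak at 13 months, and Bcl6, Egfr and Socs3 dip at 13 months.

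Ghr, which encodes the growth hormone receptor and the soluble binding protein spliced from the same gene in mice, was at 10.81, 10.81, 10.55 and 10.87 at 4, 8, 13 and 21 months. The 13-month level was 0.26 below both younger ages and 0.32 below 21 months. Its other probe sets split on this dip. The 1451871_a_at set was at 7.64, 7.63, 7.38 and 7.66 and dipped alike, and 1451501_a_at, at 10.56, 10.53, 10.51 and 10.53, stayed within a range of 0.05. The suffix _a_at marks a probe set that matches several transcripts of its gene. None of the Ghr probe sets differed by 1.5-fold between any ages.

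Jak2, the kinase that carries the signal from the receptor, was at 6.61, 6.59, 6.58 and 6.81. It was 0.23 higher at 21 than at 13 months. Its other probe set, at 5.59, 5.61, 5.44 and 5.46, was higher by 0.02 in that comparison and lower by 0.13 at 21 than at 4 months, where the brighter one was higher by 0.20. The pair thus gave no common direction over the whole span.

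Stat5a had the narrowest range of the 10 genes, with levels of 6.00, 5.99, 5.97 and 6.00, a range of 0.03 that ranked 11450 of 11582 genes by size. A dimmer Stat5a probe set was at 3.80, 4.08, 4.00 and 4.14, close to the filter. Stat5b, the form more abundant in liver, was at 6.47, 6.22, 6.36 and 6.70. Its largest difference was 0.48 between 21 and 8 months, a 1.39-fold excess. The second Stat5b probe set was at 5.94, 5.75, 5.79 and 5.69, with its highest level at 4 months, so the 21-month excess was seen in 1 of 2 probe sets.

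The feedback inhibitors of the SOCS family, which bind activated receptors or kinases and curb their signal, were all higher at 8 than at 4 months, by 0.37 to 0.57, and differed from each other after that. Socs2, whose loss causes overgrowth in mice, was at 7.67, 8.24, 8.62 and 7.82. The 13-month pool stood highest and the 4-month pool lowest. Socs2 was 1.93-fold higher at 13 than at 4 months (0.95), a difference that ranked 30 of 11582 genes by size. It was 1.74-fold lower at 21 than at 13 months (-0.80). At 8 vs 4 months the difference was 0.57, or 1.48-fold, just short of the fold rule.

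Of 6 Socs2 probe sets 4 were above the filter. The 1418507_s_at set followed the same arch at 6.54, 7.26, 7.79 and 7.09, with the 13-month pool again highest and the 4-month pool lowest. The 1446085_at set, at 5.70, 6.44, 6.29 and 4.96, peaked at 8 months instead and was 1.33 lower at 21 than at 13 months. The 1442586_at set was at 5.14, 5.14, 5.07 and 4.75. All 4 were thus lower at 21 than at 13 months, by 0.32 to 1.33, whereas at 21 vs 4 months 2 were higher and 2 lower, from -0.74 to 0.55. The 2 dim probe sets stayed between 1.81 and 3.25.

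Cish, the cytokine-inducible member of the family and a STAT5 target, had a single probe set, at 7.26, 7.71, 7.75 and 7.09. The 8- and 13-month pools were high and the 4- and 21-month pools low. Cish was 1.58-fold lower at 21 than at 13 months (-0.66) and 1.54-fold lower at 21 than at 8 months (-0.62). At 13 vs 4 months it was higher by 0.49, or 1.40-fold. No second probe set was available to check it.

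Socs3, which is induced by IL-6 family cytokines through STAT3 as well as by growth hormone, was lowest at 13 months, where Socs2 and Cish were highest, at 6.70, 7.07, 6.46 and 7.11. It was 1.53-fold lower at 13 than at 8 months (-0.61) and 1.57-fold higher at 21 than at 13 months (0.65). The probe set behind these values carries the suffix _x_at, which marks probes that can also bind other transcripts. The other 2 sets had the same order of steps with smaller sizes. The 1416576_at set was at 6.16, 6.43, 6.10 and 6.36. The 1456212_x_at set, which carries the same suffix, was at 5.58, 5.81, 5.52 and 5.85. Their differences at 21 vs 13 months were 0.26 and 0.33, so only the brightest set passed the fold rule.

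STAT dimers bind the palindrome TTCNNNGAA, which reads the same on both strands. It was searched in RefSeq promoter windows of GRCm38.p6, from 250 bases before to 50 bases after each annotated start site, which were at hand for 9 of the 10 genes in 14 windows. At least 1 match was present in 8.30% of all 32851 windows, at least 2 in 0.457% and at least 3 in 0.0335%. Among the members, Cish, Socs3 and Bcl6 held matches, in 4 windows. Socs2 was not in the table. The windows of Ghr, Jak2, Stat5a, Stat5b, Cux2 and Egfr do not hold these letters. A match is a description of sequence and no evidence of binding. The windows of Cish and Socs3, feedback genes of which the first was highest and the second lowest at 13 months, are shown in gene orientation with each match in capitals. The Cish window, chr9:107296409-107296708 on the plus strand, holds 2 matches, TTCCTGGAA and TTCTTGGAA, which lie from the start site at 1 to 9 and from 12 to 20. The Socs3 window, chr11:117969317-117969616 on the minus strand, holds TTCTTAGAA from -154 to -146.
Cish: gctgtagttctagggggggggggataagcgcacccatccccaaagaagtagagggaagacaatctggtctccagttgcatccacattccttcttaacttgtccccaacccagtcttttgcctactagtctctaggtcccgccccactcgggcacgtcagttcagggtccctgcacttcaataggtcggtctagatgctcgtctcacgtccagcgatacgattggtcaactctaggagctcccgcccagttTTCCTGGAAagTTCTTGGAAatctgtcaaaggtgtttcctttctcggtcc
Socs3: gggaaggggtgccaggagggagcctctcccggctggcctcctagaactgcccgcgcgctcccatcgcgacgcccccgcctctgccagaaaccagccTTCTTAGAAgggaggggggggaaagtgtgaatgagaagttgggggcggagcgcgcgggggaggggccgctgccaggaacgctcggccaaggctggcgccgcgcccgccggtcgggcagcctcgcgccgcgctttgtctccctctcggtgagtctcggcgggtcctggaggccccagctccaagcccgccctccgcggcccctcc

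Bcl6 had the widest range of the 10 genes. This zinc finger repressor recognises sites that overlap those of STAT factors, and in male mouse liver it restrains female-biased and lipid genes. It was at 7.00, 7.04, 5.93 and 7.13 at the 4 ages. The 13-month pool stood apart, and the other 3 pools lay within 0.13 of each other. Bcl6 was 2.16-fold lower at 13 than at 8 months (-1.11), 2.10-fold lower than at 4 months (-1.07), and 2.30-fold higher at 21 than at 13 months (1.20). By size these differences ranked 16, 22 and 23 of 11582 genes.

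A gene at least 2-fold below every other age at 13 months was rare on these arrays, and Bcl6 was 1 of 2 such genes, 0.0173% of the genes kept. At 1.5-fold it was 1 of 6, 0.0518%. The same count was made at each age in both directions, and no other member met it at 1.5-fold. The dimmer probe set of Bcl6 had the same shape at 4.99, 5.18, 4.45 and 5.05. Its differences were -0.73 at 13 vs 8 months, -0.54 at 13 vs 4 months and 0.60 at 21 vs 13 months, and it lay nearer the filter. Both probe sets thus placed the low point at 13 months.

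The Bcl6 promoter windows are printed because this gene combined the widest range with the most matches to the STAT palindrome. RefSeq gives 2 start sites. The first window, chr16:23988803-23989102 on the minus strand, holds TTCTCAGAA from -118 to -110. The second, chr16:23981234-23981533 on the minus strand, holds 3 matches, TTCCTGGAA from -168 to -160, TTCTGTGAA from -122 to -114 and TTCCGGGAA from -88 to -80.
Bcl6 window 1: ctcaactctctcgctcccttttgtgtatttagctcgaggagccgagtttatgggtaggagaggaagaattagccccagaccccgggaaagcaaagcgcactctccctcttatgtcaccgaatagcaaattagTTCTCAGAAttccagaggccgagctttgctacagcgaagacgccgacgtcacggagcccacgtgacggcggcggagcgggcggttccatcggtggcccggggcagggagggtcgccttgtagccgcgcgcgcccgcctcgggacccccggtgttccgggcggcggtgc
Bcl6 window 2: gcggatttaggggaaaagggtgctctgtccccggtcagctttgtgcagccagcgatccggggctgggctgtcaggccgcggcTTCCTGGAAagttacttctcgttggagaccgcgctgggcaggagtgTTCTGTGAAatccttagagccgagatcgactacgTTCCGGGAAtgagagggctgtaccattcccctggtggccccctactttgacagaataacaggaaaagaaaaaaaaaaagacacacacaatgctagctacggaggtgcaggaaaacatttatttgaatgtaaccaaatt

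Cux2, the repressor that marks female mouse liver, was flat at 5.32, 5.35, 5.22 and 5.33. Its remaining probe sets were below the filter, at 3.15, 3.06, 3.08 and 3.23 and at 1.94, 1.97, 1.95 and 2.08. With no detection calls at hand, such values cannot be told from background. The first of these dim sets, 1450181_at, is the one annotated to a RefSeq mRNA. Only 1447821_at placed Cux2 above the filter. None of the 3 sets differed by more than 0.17 between any ages.

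Egfr, the receptor of epidermal growth factor, whose liver expression depends on growth hormone in mice, was at 9.27, 9.60, 8.94 and 10.08. The 21-month pool was highest and the 13-month pool lowest. Egfr was 2.20-fold higher at 21 than at 13 months (1.14), 1.75-fold higher at 21 than at 4 months (0.81) and 1.58-fold lower at 13 than at 8 months (-0.66). The first of these ranked 27 of 11582 genes by size.

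The 7 Egfr probe sets did not agree. The 1424932_at set, at 7.88, 8.08, 7.61 and 8.68, and 1451530_at, at 6.25, 6.48, 6.04 and 6.99, tracked the brightest one, and these 3 were higher by 0.74 to 0.81 at 21 vs 4 months. The second brightest, 1460420_a_at, was flat at 9.25, 9.10, 9.12 and 9.17. A further pair annotated to one cDNA moved the other way at 21 months, 1432647_at at 5.71, 5.75, 5.79 and 5.38 and 1454313_at at 4.19, 4.30, 4.17 and 3.94. The last set lay below the filter. The excess at 21 months was therefore seen in 3 of the 6 sets above the filter. The sets 1424932_at and 1451530_at are annotated to a shared sequence, and the brightest set and 1460420_a_at each to a different one. Beyond such source sequences, the annotation does not say which transcripts each set reads.

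**Figure D2:**
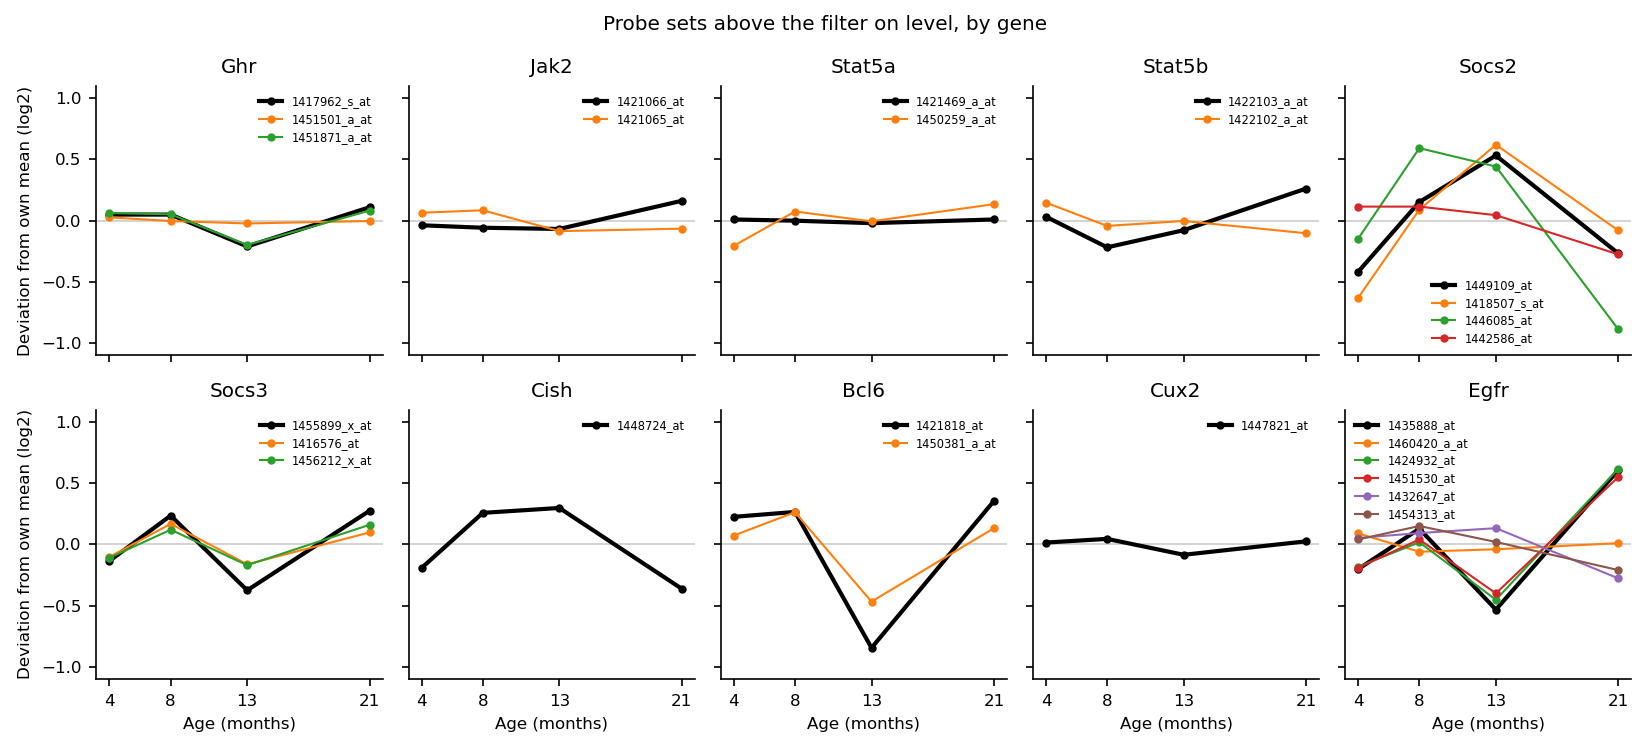
Deviation from each probe set's own mean (log2) against age in months, for the 26 probe sets above the filter, with the set that represents the gene in black. Both Bcl6 sets and the 3 Socs3 sets agree in shape, while the 6 Egfr sets divide into 3 that are lowest at 13 and highest at 21 months and 3 that are not.

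Set side by side, the comparisons of adjacent ages show where the 10 genes differed. At 8 vs 4 months 0 of 10 passed the fold rule, against 0.855% of the genes kept, and the median difference was 0.03, against 0.00 over all genes. Egfr was 0.33 higher at 8 months. At 13 vs 8 months 3 of 10 passed, all lower, namely Bcl6, Egfr and Socs3, against 1.08% of the genes kept in either direction and 0.363% that were lower. The median was -0.08, against 0.01 over all genes. With each gene's probe sets averaged, which left Cux2 below the filter, 1 of 9 passed, Bcl6.

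More members passed between 13 and 21 months than in any other of the 6 comparisons. At 21 vs 13 months 5 of 10 genes passed the rule, against 1.93% of the genes kept. Bcl6, Egfr and Socs3 were higher, as were 1.47% of the genes kept, and Socs2 and Cish were lower, as were 0.458%. The median was 0.27, against 0.01. With probe sets averaged, 2 passed, Bcl6 and Cish. Over probe sets, 10 of the members' 26 sets above the filter passed in this step, 6 higher and 4 lower, against 1.79% of all sets above the filter. Probe sets of 1 gene share its RNA, and adjacent comparisons share an array, with opposite signs for the 13-month pool.

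At 21 vs 4 months Egfr alone of the 10 passed the rule, against 2.52% of the genes kept, and the median was 0.14, against 0.01. With probe sets averaged, 0 passed. Socs3 was higher by 0.41, or 1.33-fold, with all 3 of its probe sets higher, by 0.20 to 0.41. Bcl6 differed by 0.13, Socs2 by 0.15 and Cish by -0.17. At 13 vs 4 months 2 of 10 passed, Socs2 higher and Bcl6 lower, against 1.30%, with Bcl6 alone past it on averaged probe sets, and at 21 vs 8 months 1 of 10, Cish at -0.62, against 3.36%. None of the 10 moved in a single direction at every step, which 7.50% of the genes kept did.

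**Figure D3:**
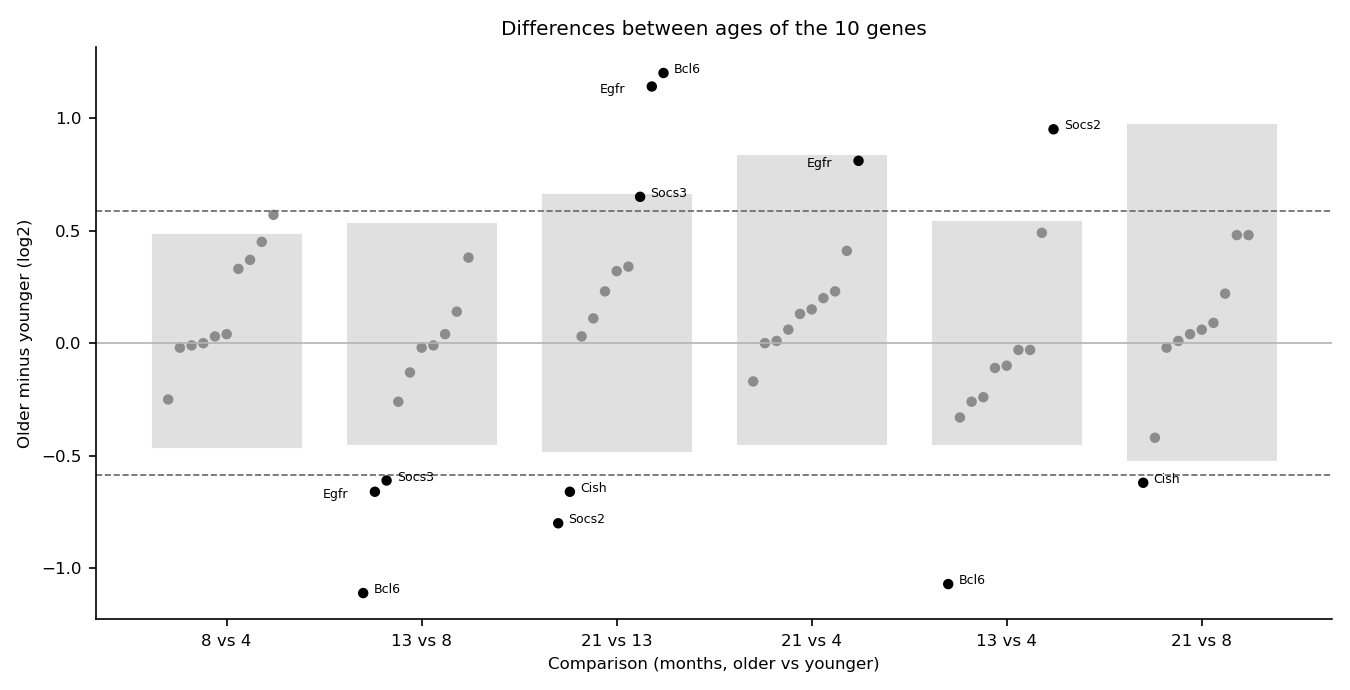
Older minus younger expression (log2) of the 10 genes in 6 comparisons, with 1 dot per gene in rising order. Black dots are past 1.5-fold (dashed lines), and grey boxes span percentiles 1 to 99 of all 11582 genes. Above the box lie Socs2 at 8 vs 4 and 13 vs 4 months and Bcl6 and Egfr at 21 vs 13 months, and below it lie Bcl6, Egfr and Socs3 at 13 vs 8, Bcl6 at 13 vs 4, Socs2 and Cish at 21 vs 13 and Cish at 21 vs 8 months.

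The ages are ordered, so a straight line on age was also fitted to the 4 arrays with limma across all 11582 genes. It called 0 genes at an adjusted p of 0.05 (Benjamini-Hochberg), with 975 genes, 8.42%, at an unadjusted p under 0.05 and 0 of the 10 members among them. The steepest member slope was that of Egfr, 0.38 ± 0.25 (SE) per 10 months, with a limma adjusted p of 0.739. The adjusted p of the members lay between 0.704 for Jak2 and 0.999 for Stat5a. Bcl6, whose profile dipped and returned, had a slope of -0.03 ± 0.34 (SE) per 10 months.

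The genes whose profile lay closest to each of the 5 variable members were found by the root mean square distance over the 4 arrays, after centring each gene on its own mean. For Bcl6 the nearest were Nr0b2, a nuclear receptor corepressor of the liver, at a distance of 0.119, Erdr1 at 0.138 and Zbtb16, another zinc finger repressor, at 0.199. Only these 3 of 11572 other genes lay within 0.2. Nr0b2 was at 8.93, 8.67, 7.80 and 8.85.

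For Egfr the nearest genes were Efna1, an ephrin ligand, at 0.143, Tnfaip2 at 0.148 and Cenpa at 0.167, with 9 genes within 0.2. For Socs2 they were the deubiquitinase Usp2 at 0.0887, Lonrf1 at 0.0896 and the apolipoprotein gene Apoa4 at 0.0907, with 57 genes within 0.2. For Cish they were Cgref1 at 0.0497, Abhd6 at 0.0539 and Spef1 at 0.0653, among 637 genes within 0.2. For Socs3 they were Vwf at 0.0320, the clock-related repressor Bhlhe40 at 0.0412 and Cenpa at 0.0531, among 581. Cish and Socs3, which had the smaller ranges, thus had the most neighbours.

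Around the receptor, most of the other signalling proteins varied little. Of 24 such kinases, STATs, phosphatases and adaptors 21 were kept, and 0 passed the fold rule at 8 vs 4 or 13 vs 8 months. At 21 vs 13 months 1 was higher and 1 lower, against 1.47% and 0.458% of the genes kept. Sirpa, a phosphatase-binding membrane protein also abundant on macrophages, was higher by 1.01, and Irs2, an insulin receptor substrate, was at -0.59. Stat3, the IL-6 pathway factor upstream of Socs3, was at 8.30, 8.09, 8.37 and 8.93 and was 0.63 higher at 21 than at 4 months. At 21 vs 4 months 2 of the 21 passed, both higher, Sirpa at 0.83 and Stat3 at 0.63, against 2.52% of the genes kept. The same 2 passed at 21 vs 8 months, at 1.27 and 0.84, against 3.36%. The median of the list was 0.03 at 21 vs 4 months, against 0.01 over all genes.

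Of 10 related cytokine and insulin receptors 9 were kept and 0 passed the fold rule in any of the 6 comparisons. Lifr, the leukaemia inhibitory factor receptor, was at 9.47, 9.35, 9.10 and 9.42. Of 11 partners and ligands of the EGF receptor 5 were kept, and again 0 passed in any comparison. The EGF receptor relative Erbb3 was at 8.99, 8.87, 8.83 and 8.90, the ligand gene Tgfa at 6.74, 6.64, 6.44 and 6.56, and the feedback inhibitor Errfi1 at 12.00, 11.92, 11.91 and 11.93. None of these passed the rule where Egfr did.

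Among targets, Igf1, the main endocrine product of growth hormone action in liver, was flat at 11.08, 11.04, 11.05 and 11.07. Igfals, which encodes the acid-labile subunit that carries IGF1 in blood, was at 8.17, 8.24, 8.39 and 8.03. Its highest level was at 13 months, as for Socs2 and Cish, but it was only 0.36 lower at 21 months and did not pass the fold rule.

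Many sex-biased liver genes depend on STAT5 in mice, and some on Bcl6. Of 17 male-predominant genes 13 were kept, and 10 of them were lower at 13 than at 8 months with a median of -0.26, 1 past 1.5-fold, against 0.363% of the genes kept. That gene was the steroid dehydrogenase gene Hsd3b5, at 9.90, 10.06, 9.09 and 9.11. At 21 vs 13 months 11 were lower, again with a median of -0.26, and 2 passed, Ugt2b38 at -1.39 and Susd4 at -0.60, against 0.458% of the genes kept. At 21 vs 4 months 13 of 13 were lower, with a median of -0.39. Of these 4 were past 1.5-fold, against 2.52% of the genes kept in either direction. Over all genes kept the median was 0.01 in each of these comparisons. Bcl6 was lower at 13 than at 8 months, higher at 21 than at 13 months, and 0.13 higher at 21 than at 4 months.

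Of 23 female-predominant genes 11 were kept. At 13 vs 8 months 9 were higher and 4 passed the fold rule upward, against 0.717% of the genes kept. These were Cyp2b9 at 1.99, Atp6v0d2 at 1.07, Trim24 at 0.78 and Cyp2b10 at 0.61. The median of the list was 0.25, against 0.01 over all genes. At 21 vs 13 months the median was -0.05, against 0.01, with 4 higher and 7 lower. In each direction 1 passed, Cyp2b9 at 1.93 and the thioesterase Acot3 at -1.66, against 1.47% higher and 0.458% lower of the genes kept. Of the 11 genes 6 were highest at 13 months, against 22.4% of the genes kept, 3 at 21 months, 1 at 4 and 1 at 8 months. Trim24, a transcriptional coregulator, was at 6.97, 6.79, 7.57 and 7.29 and Acot3 at 7.95, 8.46, 8.97 and 7.31 at the 4 ages. The 4- and 8-month levels of Cyp2b9, 3.69 and 3.56, were below the filter, which leaves the size of its change open to doubt. A link between these genes and Bcl6 was not tested.

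**Figure D4:**
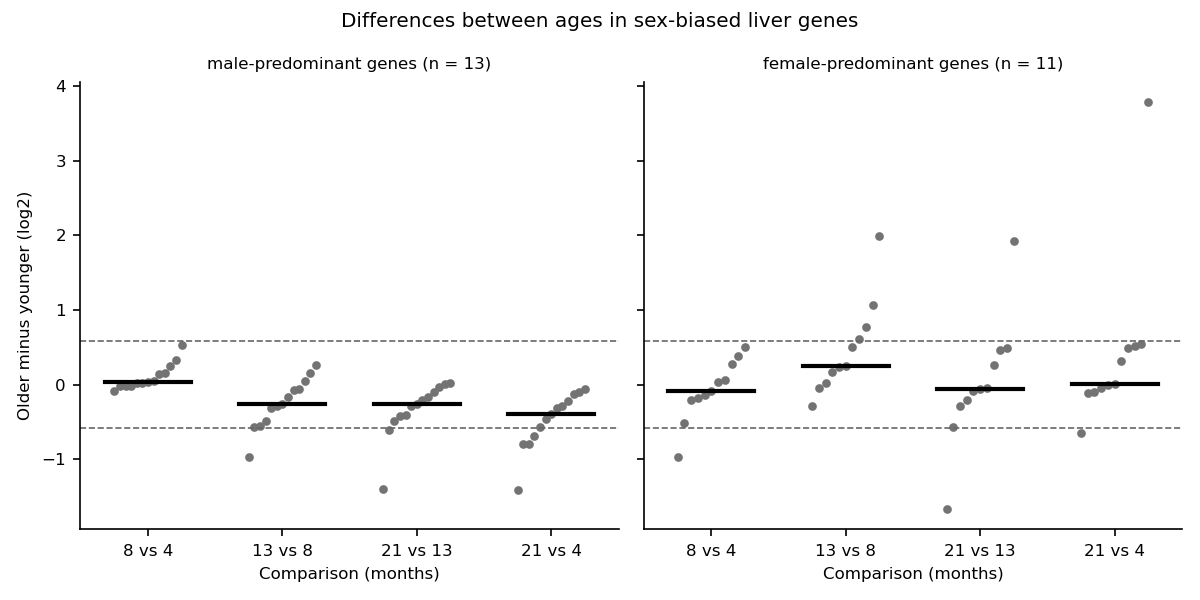
Older minus younger expression (log2) of the kept male-predominant (n = 13) and female-predominant (n = 11) liver genes at 4 comparisons, 1 dot per gene, with the median as a black bar and dashed lines at 1.5-fold. The male-predominant medians are -0.26 at 13 vs 8 and at 21 vs 13 months, and the female-predominant median is 0.25 at 13 vs 8 months.

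Other measures also differed between these pools. Beside the 21-month levels of Socs3 and Egfr, 15 of 15 acute phase genes were higher at 21 than at 13 months, 8 past 1.5-fold. The median of that list was 0.71, against 0.01 over all genes. Of the 10 macrophage markers 9 were higher in that step, 8 past 1.5-fold, against 1.47% of the genes kept for either list. The summed level of the macrophage markers was 74.91, 70.14, 76.34 and 82.81 at the 4 ages. At 13 vs 8 months, where Socs3 and Egfr were lower, 10 of 10 macrophage markers and 11 of 15 acute phase genes were higher. The medians of these lists were 0.40 and 0.10, against 0.01 over all genes. At 8 vs 4 months, where Socs3 and Egfr were higher, 10 of 10 macrophage markers and 12 of 15 acute phase genes were lower. The medians there were -0.38 and -0.08, against 0.00. The 5 kept neutrophil markers summed to 22.55, 24.12, 23.76 and 25.71, and without Ltf, at 3.28, 5.22, 3.53 and 3.56, the other 4 summed to 19.27, 18.90, 20.23 and 22.15. The 5 B lineage markers summed to 21.55, 23.64, 24.01 and 26.18, higher at each later age. Ighm was at 5.46, 6.41, 7.15 and 8.30, and Jchain was higher by 1.58 at 21 than at 4 months. At 21 vs 13 months these 2 were higher and the other 3, Cd79b, Ms4a1 and Pax5, were lower, with a median of -0.10. At 13 vs 8 months Ighm alone was higher and the other 4 were lower, with a median of -0.05. The median over all genes was 0.01 in both steps. The sums for the 4 T and NK, 3 bile duct, 7 endothelial and 6 stellate markers ranged from 17.84 to 18.26, 11.73 to 12.28, 43.58 to 45.20 and 42.44 to 43.00. Below the filter lay Camp and Mpo of the neutrophil list, Cd79a of the B lineage list, Cd3g, Nkg7 and Gzma of the T and NK list, Krt19, Krt7 and Cftr of the bile duct list, and Col1a1 of the stellate list. Whether the acute phase response or the make-up of cells contributed to the levels of the members was not tested.

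The labels state no time of day for the dissections. Beside the 8-month levels of Socs2, Cish and Socs3, 3 of 14 kept clock genes were past 1.5-fold higher at 8 vs 4 months, against 0.855% of the genes kept in either direction, namely Dbp at 1.09, Ciart at 0.95 and Per3 at 0.71. Beside the 13-month levels of Socs2, Cish and Bcl6, 4 of 14 kept clock genes were past 1.5-fold higher and 1 lower at 13 vs 4 months, against 1.30% of the genes kept, with Dbp at 1.16 and Arntl at -0.65. Of the 14 clock genes 8 were highest at 13 months, as were Socs2 and Cish, against 22.4% of the genes kept. At 13 vs 8 months 0 of 14 passed, against 1.08% of the genes kept. At 21 vs 13 months 1 was past the rule and higher and 1 lower, against 1.47% and 0.458%. Of 13 kept PPAR-alpha target genes, which respond to fasting, 0 passed at 13 vs 8 months. At 21 vs 13 months 6 were past the rule and lower, against 0.458% of the genes kept. Their list had a median of -0.51, against 0.01 over all genes. Whether time of day or feeding state contributed was not tested.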

How the data were processed

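Liver RNA at 4 ages was measured on 4 arrays, and the number of arrays limits the precision. For 45101 probe sets the deposited file gives log2 levels between 1.22 and 13.7. The authors obtained these with RMA, per the submitters' processing notes, a method that removes background, brings arrays to a common distribution and combines probes. A shift common to most genes of a pool is thereby hidden.

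The platform annotation gave 34945 probe sets 1 gene symbol. The others (932 with several, 9160 with none or not listed, 64 controls) named no gene. A gene took its probe set with the highest mean, and genes with a mean of at least 3.7425, the median of all probe set means, were kept.

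Differences were counted at 1.5-fold, with no test between ages. The trend on age used lmFit and eBayes of limma with 2 residual degrees of freedom and Benjamini-Hochberg adjustment over all genes kept, and was tested on simulated data. Named genes were the members, up to 4 genes past 1.5-fold of each list, Igf1 and Igfals, and the 3 nearest profiles of each member with a range of at least 1.5-fold. Lifr, Erbb3, Tgfa and Errfi1 were chosen after their values were seen, to show the levels of their lists. The members, lists and naming rule were chosen with earlier results of these data known. Alternatives were averaged probe sets, other filters, median centring, quantile and cyclic loess normalization, other folds, log2 of age, a prior with a trend on level, and leaving out each array. The software was R 4.3.3 with limma 3.58.1 and Python 3.11.15 with pandas 2.3.3, numpy 2.4.6 and matplotlib 3.10.9.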

Additional observations from a re-analysis of the deposited data

How the results depend on the processing

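The number of members past 1.5-fold, 0, 3, 5, 1, 2 and 1 at 8 vs 4, 13 vs 8, 21 vs 13, 21 vs 4, 13 vs 4 and 21 vs 8 months, was the same without a filter, with a stricter filter at percentile 75 and after median centring. Quantile normalization and cyclic loess changed it only at 8 vs 4 months, to 1 each, by Socs2. With a gene's probe sets averaged it was 1 at 13 vs 8, 2 at 21 vs 13, 0 at 21 vs 4 and 1 at 13 vs 4 months. Of 12 differences past 1.5-fold 5 stayed past it there, and 7 did not, those of Egfr, Socs2 and Socs3. The 5 were 3 of Bcl6 and 2 of Cish, whose single probe set the averaging could not change. For Egfr and Socs2, averaging mixes in dim and discordant probe sets. The 3 Socs3 sets were all above the filter and had the same order of steps, with the largest steps in the set that represents the gene. At 2-fold the counts were 1 at 13 vs 8, 2 at 21 vs 13, 0 at 21 vs 4, 1 at 13 vs 4 and 0 at 21 vs 8 months. At a laxer fold, 0.32 on the log2 scale, they were 4 at 8 vs 4, 4 at 13 vs 8, 6 at 21 vs 13, 2 at 21 vs 4, 4 at 13 vs 4 and 4 at 21 vs 8 months. No difference past 1.5-fold changed sign in any of these settings. Cux2 was not kept with averaged probe sets or the stricter filter. The trend on age called 0 members under each of its 12 alternatives, with a lowest adjusted p between 0.216 and 0.899 (limma). Leaving out the 4-month array made it call 31 genes of 11582, where the full fit called 0. No paired analysis was possible because each age has 1 array. Signal over background is unknown without detection calls, so the differences of dim probe sets are uncertain in size.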
